A study of Mus musculus with 4 samples.

Results

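The genes described here are 10 parts of the Toll-like receptor pathway in colon macrophages of mice. They are the receptors Tlr2, Tlr4, Tlr7 and Tlr13, the co-receptors Cd14 and Ly96, the adaptor Myd88 and the kinases Irak2, Irak3 and Irak4. They were chosen by name, and all 10 were found among the 12596 gene rows of the deposited table. Cells were sorted from the colonic lamina propria of male C57/Bl6N mice as CD11b+ cells that carried Ly6C or CD64, and each mouse was loaded into 1 well. Mice 14 and 15 received 12 µg of diesel exhaust particles (DEP, the soot of diesel engines) in 200 µL of PBS by gavage, 5 days per week over about 6 months. Mice 2 and 3 received the same volume of PBS alone by the same schedule. With 1 well per mouse, a difference between wells and a difference between mice cannot be told apart.

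Toll-like receptors are receptors of innate immune cells for microbial molecules. Tlr2 recognises bacterial lipopeptides and Tlr4 lipopolysaccharide, both at the cell surface, whereas Tlr7 and Tlr13 recognise single-stranded and bacterial ribosomal RNA in endosomes. Cd14 hands lipopolysaccharide and lipopeptides to the receptors, and Ly96 (MD-2) is the part of the Tlr4 complex that binds lipopolysaccharide. Myd88 links the receptors to Irak4 and Irak2, which carry the signal towards NF-kB, whereas Irak3 (IRAK-M) dampens it. Macrophages of the healthy colon derive largely from blood monocytes and are known for their muted response to microbial products.

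The table held unique molecular identifier (UMI) counts, that is, counts of captured RNA molecules, in 943 cells. The mice contributed 189 and 334 cells (DEP) and 200 and 220 cells (PBS), with 747351 to 1349134 UMIs per mouse. Cells were left out when UMIs of at least 3 markers of B or plasma, T, innate lymphoid, epithelial or stromal cells were seen in them, which removed 170 cells and retained 773. Of the 170 cells, 156 were left out for markers of B or plasma cells. The share left out was higher upon DEP (21.2% of mouse 14 and 23.4% of mouse 15) than upon PBS (11.0% of mouse 2 and 13.6% of mouse 3). Most of these cells carried immunoglobulin transcripts as their B cell markers, since without those transcripts the same rule removed 33 cells. The part of free RNA in those transcripts was not tested. A barcode was shared by 2 libraries in 1 case.

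The retained cells were divided by transcripts that are not among the 10 genes. Plac8-high cells had 2 or more UMIs of Plac8, a gene of monocytes, and C1q-high cells had 0.5% or more of their UMIs in C1qa, C1qb and C1qc, the complement genes of resident macrophages. There were 131 Plac8-high cells (31 and 59 in the DEP mice, 16 and 25 in the PBS mice) and 575 C1q-high cells (100 and 180, and 140 and 155). A further 49 cells met both rules and 18 met neither. Of the 170 cells left out, 128 were C1q-high by the same rules. The rules do not separate all cells sharply, with 17 cells at exactly 2 Plac8 UMIs and 47 at 1. Ccr2, which was not used for the classes, stood at 540 to 979 CPM (UMIs of the gene scaled to library size) in the Plac8-high cells of the 4 mice and at 173 to 228 CPM in the C1q-high cells. Ly6c2 stood at 570 to 1008 CPM and at 4.0 to 6.3 CPM. The summed level of 13 markers of resident macrophages, the C1q genes included, was 5755 to 8966 CPM in Plac8-high and 61680 to 69244 CPM in C1q-high cells. Markers of dendritic cells, of which 5 of 8 were in the table, summed to 0 to 229 CPM in Plac8-high and 15.5 to 59.6 CPM in C1q-high cells, and the 2 neutrophil markers of 9 in the table to 23.5 to 140 and 1.9 to 3.1 CPM. T cell markers summed to 0 to 19.4 CPM in Plac8-high and 38.8 to 75.4 CPM in C1q-high cells, there mostly Cd4. The part of such cells in the results was not tested. The Plac8-high libraries were shallow, with 49967 to 170278 UMIs per mouse, against 503708 to 789533 UMIs for the C1q-high libraries.

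Cd14 was by far the most abundant of the 10 genes and Irak3 the least. Each UMI marks the 3′ end of 1 molecule, so that these levels were not scaled to gene length. Over all retained cells Cd14 reached 1267 CPM, with a UMI in 82.3% of the cells. Tlr2 followed with 143 CPM and 33.6% of the cells. Ly96 (63.3 CPM), Myd88 (54.4 CPM) and Irak2 (49.9 CPM) lay close together. Irak4, Tlr13 and Tlr7 lay between 27.2 and 30.4 CPM. Tlr4 stood at 14.7 CPM with 46 UMIs in all, and Irak3 at 9.0 CPM with 28 UMIs. The ranges over the 4 mice overlapped within the group of Ly96, Myd88 and Irak2, within that of Irak4, Tlr13 and Tlr7, and between Tlr4 and Irak3. At least 1 of the 4 receptor genes was seen in 48.6% of the retained cells and more than 1 of them in 8.93%.

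Free RNA in droplets gives UMIs in cells that do not express a gene. In 12 B lineage cells of the same table (median 3866.5 UMIs per cell), chosen after the values were seen, Tlr2, Tlr4, Tlr7, Tlr13 and Irak4 had no UMI. A share of 0 of 12 cells allows up to 26.5% by the exact binomial interval at 95%, so that this check is coarse. Cd14, Irak2 and Irak3 each had a UMI in 1 of the 12 cells, Ly96 in 2 and Myd88, which B cells also use, in 3. Of the class genes, C1qa had a UMI in 4 and Plac8 in 5 of them. Cells with 0.5% or more of their UMIs in the C1q genes were not among the 12, so that the choice itself limits the C1qa count. Whether the Plac8 UMIs were free RNA was not tested.

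Tlr2, Myd88 and Irak2 were the genes of the 10 that passed the test between the cell classes. For these genes the stretch before the RefSeq start is given, since they were higher together in Plac8-high cells. The promoter sequences are those of RefSeq on GRCm38.p6, which held entries for 6 of the 10 genes. Each stretch was taken from the 250 bases before the RefSeq start and ended before the first annotated exon. Capitals mark matches, on either strand, to GGGNNNNNCC, a core of NF-kB sites, and to GAAANNGAAA, a core of interferon response sites.

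Tlr2 (chr3:83841768-83841858, minus strand): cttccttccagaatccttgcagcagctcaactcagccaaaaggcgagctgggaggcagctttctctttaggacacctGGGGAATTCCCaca
Myd88 (chr9:119340042-119340268, minus strand): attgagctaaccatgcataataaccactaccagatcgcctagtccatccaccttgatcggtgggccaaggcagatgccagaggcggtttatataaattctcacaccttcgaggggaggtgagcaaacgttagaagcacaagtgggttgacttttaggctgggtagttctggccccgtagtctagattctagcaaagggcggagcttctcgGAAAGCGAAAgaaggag
Irak2 (chr6:113638217-113638466, plus strand): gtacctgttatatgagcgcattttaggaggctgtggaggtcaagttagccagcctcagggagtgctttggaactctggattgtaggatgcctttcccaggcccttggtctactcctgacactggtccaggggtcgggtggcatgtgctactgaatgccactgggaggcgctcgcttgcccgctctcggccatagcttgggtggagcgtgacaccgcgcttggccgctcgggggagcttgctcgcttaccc

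Tlr2 held 2 overlapping matches to the NF-kB letters, Myd88 held 1 match to the interferon response letters, and Irak2 held neither. The NF-kB letters occurred in 45.8% of all 32851 promoter entries over the same 250 bases, so that a match is common, and the interferon response letters in 2.98%. The genes themselves lie at chr3:83836272-83841767 (Tlr2, minus strand), chr9:119335934-119341411 (Myd88, minus strand) and chr6:113638467-113695026 (Irak2, plus strand) of GRCm38. The Myd88 stretch lies within the annotated interval of its gene, in an intron of a transcript that starts further upstream, whereas those of Tlr2 and Irak2 lie outside theirs.

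The first comparison asked how the 10 genes differ between monocyte-like and resident-like cells of the same mice. Counts were summed per mouse and class, and the 8 sums were compared with edgeR's quasi-likelihood test with the mouse as a block. Of 5315 genes tested, 1066 (20.1%) had an adjusted p under 0.05, 455 of them (8.56%) higher and 611 (11.5%) lower in Plac8-high cells. Among the 10 genes, 9 were tested, of which 3 were higher and none lower at that threshold. The median log2 fold change of the 9 was 0.71, and that of all genes tested was -0.10. In bulk sums of this kind, fewer cells with a transcript and less RNA per cell cannot be told apart.

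**Figure D1:**
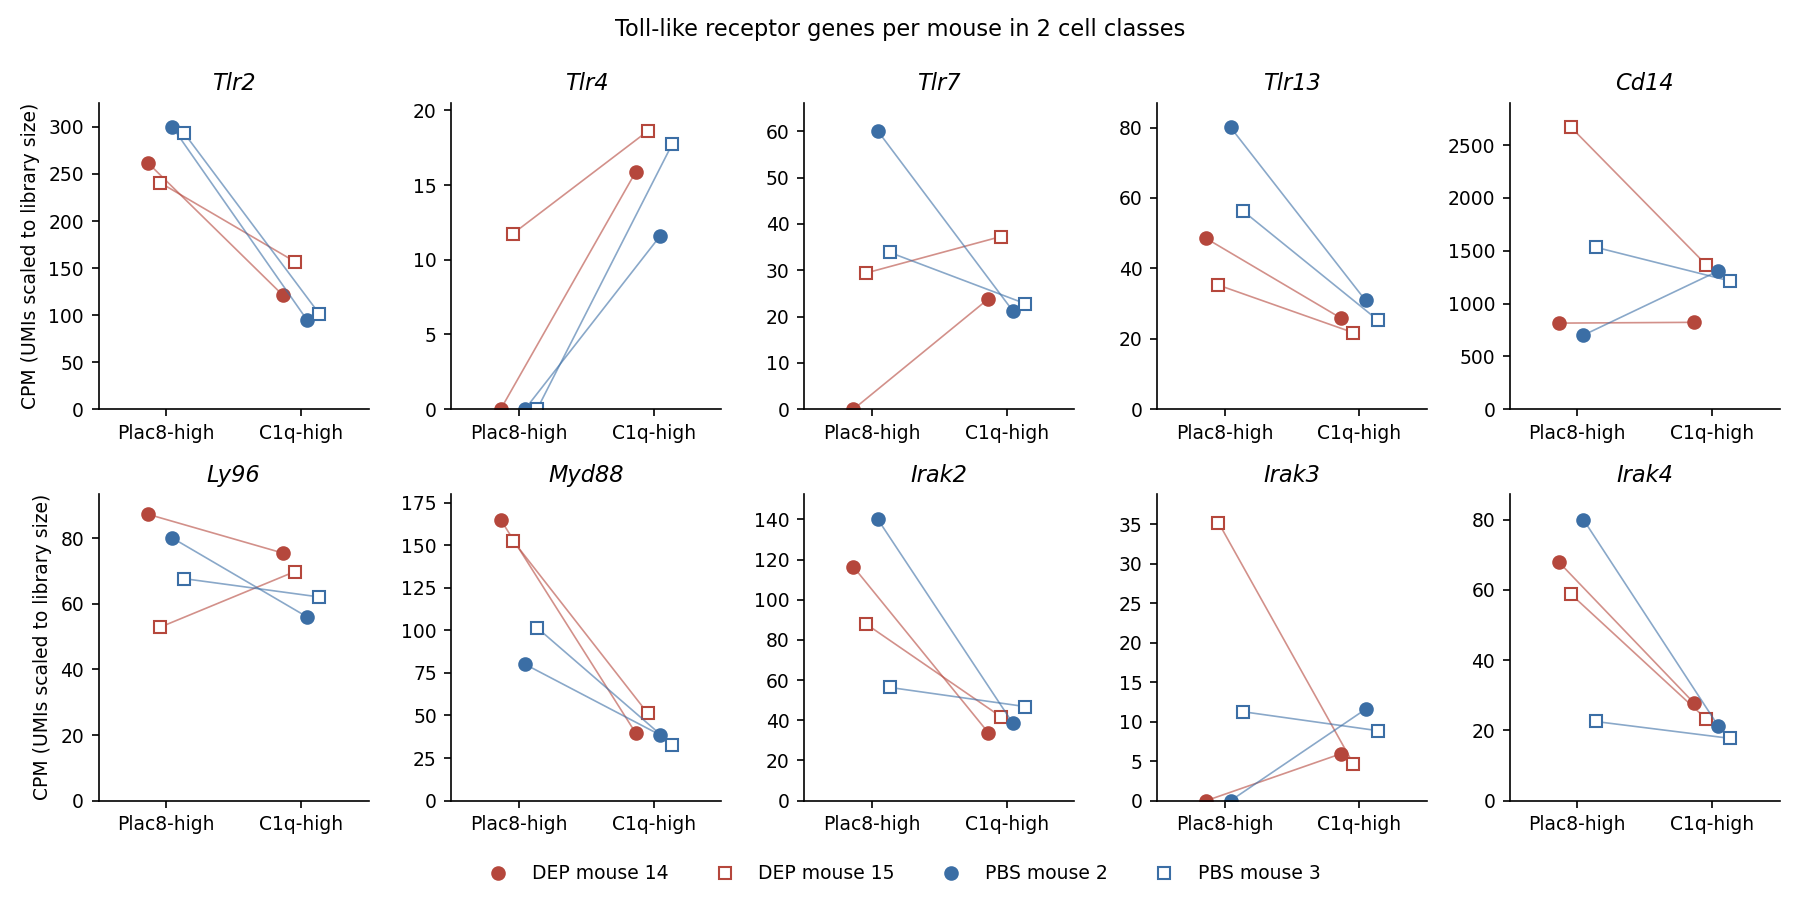
CPM (UMIs scaled to library size, linear axes from 0) of the 10 genes in the summed Plac8-high and C1q-high cells of each mouse, with lines joining the classes of 1 mouse. Tlr2, Tlr13, Myd88, Irak2 and Irak4 were higher in Plac8-high cells in all 4 mice, whereas Cd14, Ly96, Tlr7 and Irak3 had no common direction. Tlr4 values were lower in Plac8-high cells, where they rested on 2 UMIs in all.

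Among the receptors, Tlr2 was higher in Plac8-high cells. Its level was 262 and 241 CPM in the Plac8-high cells of DEP mice 14 and 15 and 300.2 and 293 CPM in those of PBS mice 2 and 3. In C1q-high cells it was 121, 157, 94.6 and 101 CPM in the same order. The lowest Plac8-high library thus lay above the highest C1q-high library. The log2 fold change was 0.87 (SE 0.21, adjusted p = 0.0015). A Tlr2 UMI was seen in 44.3% of the Plac8-high cells (58 of 131) and in 30.1% of the C1q-high cells (173 of 575). After thinning each cell to 1000 UMIs the shares were 19.1% and 9.91%. On thinned counts the fold change was 0.63 and did not pass the threshold (adjusted p = 0.21).

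Tlr4 was scarce in both classes and pointed the other way. Only 2 UMIs were counted in the Plac8-high cells, both in mouse 15, against 8, 12, 6 and 14 UMIs in the C1q-high cells of mice 14, 15, 2 and 3. The C1q-high libraries stood at 11.6 to 18.6 CPM, whereas 3 of the 4 Plac8-high libraries held no Tlr4 UMI. A count of 0 in those libraries allows up to 29.1 to 60.0 CPM (3 counts), which is above the level in C1q-high cells. Over all mice the ratio of Plac8-high to C1q-high was 0.298, with a counting interval of 0.0349 to 1.15, which covers counting error only. The difference did not pass the test (log2 fold change -2.01, SE 0.92, adjusted p = 0.13) and was not detectable at this depth.

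Neither endosomal receptor passed the test. Tlr13 was higher in Plac8-high cells in every mouse, at 48.5, 35.2, 80.1 and 56.4 CPM (mice 14, 15, 2 and 3) against 25.8, 21.7, 30.9 and 25.3 CPM. These levels rested on 4 to 6 UMIs per Plac8-high library, and the fold change of 0.71 (SE 0.42) did not pass the test (adjusted p = 0.26). Over all mice the ratio was 1.89, with an interval of 1.08 to 3.17 for counting error only. Tlr7 had 0 to 5 UMIs per Plac8-high library, which gave 0, 29.4, 60.0 and 33.8 CPM against 23.8, 37.2, 21.2 and 22.8 CPM in C1q-high cells. Its fold change was -0.32 (SE 0.53, adjusted p = 0.75), with 2 mice higher and 2 lower.

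Neither co-receptor passed the test. Cd14 stood at 815, 2666, 700 and 1533 CPM in Plac8-high cells and at 822, 1367, 1309 and 1212 CPM in C1q-high cells (mice 14, 15, 2 and 3). The Plac8-high libraries thus spread far more than the C1q-high ones and enclosed them. The fold change was -0.07 (SE 0.17, adjusted p = 0.83). Ly96 stood at 87.3, 52.9, 80.1 and 67.6 CPM against 75.4, 69.8, 56.0 and 62.1 CPM, with a fold change of -0.24 (SE 0.31, adjusted p = 0.66). The directions of Cd14 and Ly96 rest on the scaling, since with library totals in place of TMM factors their fold changes were 0.23 and 0.03.

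Myd88, the shared adaptor, had the largest difference that passed the test. Its level was 165, 153, 80.1 and 101 CPM in the Plac8-high cells of mice 14, 15, 2 and 3. In the C1q-high cells it was 39.7, 51.2, 38.6 and 32.9 CPM. All Plac8-high libraries lay above all C1q-high libraries, with a log2 fold change of 1.36 (SE 0.29, adjusted p = 0.00028). A Myd88 UMI was seen in 31.3% of the Plac8-high cells and in 14.4% of the C1q-high cells. On thinned counts the fold change was 1.04 (adjusted p = 0.14).

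Irak2 was also higher in Plac8-high cells, by a smaller margin over its error. It stood at 116, 88.1, 140 and 56.4 CPM in Plac8-high cells and at 33.7, 41.9, 38.6 and 46.9 CPM in C1q-high cells. The groups did not overlap, but mouse 3 differed little, with 5 UMIs in its Plac8-high cells. The fold change was 0.94 (SE 0.33, adjusted p = 0.032). It lost the threshold without mouse 14 (adjusted p = 0.20), without mouse 15 (0.11) or without mouse 2 (0.10), and with DESeq2 (0.21).

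Irak4, the kinase that acts first, pointed the same way without passing the test. It stood at 67.9, 58.7, 80.1 and 22.5 CPM against 27.8, 23.3, 21.2 and 17.7 CPM, and the fold change was 0.99 (SE 0.42, adjusted p = 0.094). With library totals alone the adjusted p was 0.022. Irak4 was also frequent among the 49 cells that met both class rules, with a UMI in 30.6% of them against 14.5% of Plac8-high and 8.87% of C1q-high cells. When those cells were counted as Plac8-high, the fold change was 1.29 (adjusted p = 0.0081). Irak3 was too scarce to be tested. It had 7 UMIs in Plac8-high cells, 6 of them in mouse 15, and 19 UMIs in C1q-high cells.

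Of the 9 genes tested, 5 (Tlr2, Tlr13, Myd88, Irak2 and Irak4) were higher in Plac8-high cells in all 4 mice, as were 22.8% of all genes tested. Tlr4 values were lower in all 4 mice, as were those of 15% of all genes, but rested on 2 UMIs over all Plac8-high cells. Tlr4 passed the filter on low counts through the C1q-high cells alone, so that its direction is a description. The scaling bears on such counts. TMM factors were 1.06 to 1.21 in Plac8-high and 0.883 to 0.910 in C1q-high libraries, and with library totals alone the median of all genes moved from -0.10 to 0.18. The genes called were then 843 higher and 442 lower. Tlr2, Myd88 and Irak2 stayed above the threshold with that scaling.

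**Figure D2:**
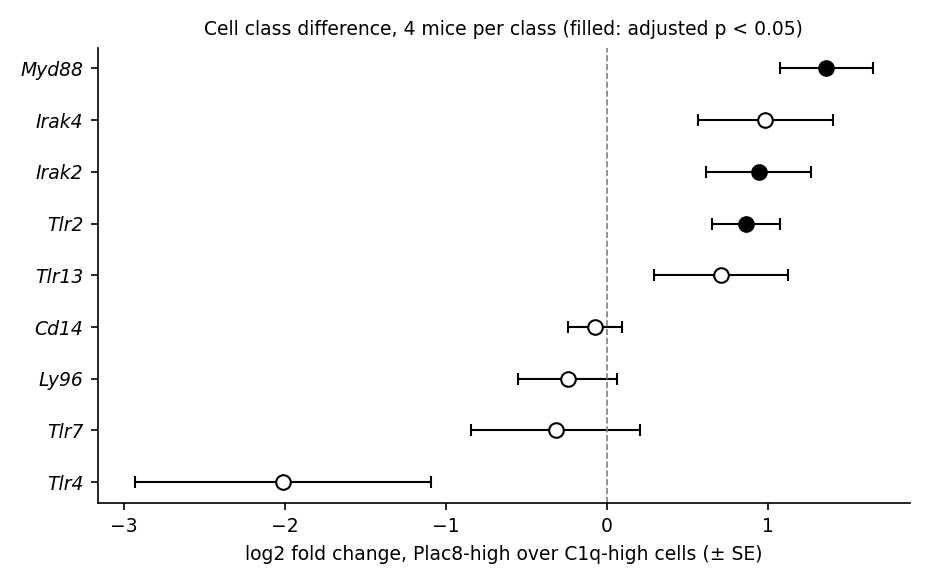
Log2 fold change of Plac8-high over C1q-high cells (horizontal axis) for the 9 tested genes, with the standard error as bars and filled points for an adjusted p under 0.05. Myd88 (1.36), Irak2 (0.94) and Tlr2 (0.87) were past the threshold, and the Tlr4 estimate of -2.01 rests on 2 UMIs in the Plac8-high cells.

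Other genes of the pathway, listed by role, also differed between the classes. Of 51 such genes tested, the dissociation genes included, 4 (7.84%) were higher and 18 (35.3%) lower in Plac8-high cells, beside 8.56% and 11.5% of all genes. With library totals alone the counts were 7 and 13. Genes such as Tlr12 and Cd36 passed the filter on low counts through the C1q-high cells alone, so that these counts are a description. Among the other receptors, 3 of 9 were tested and 1 passed. Tlr12, an endosomal receptor for profilin, had no UMI in Plac8-high cells against 40, 43, 47 and 72 UMIs in the C1q-high cells of mice 14, 15, 2 and 3. Against a floor of 3 counts over the class, it was at least 11.3-fold lower in Plac8-high cells. Of 7 cofactors and trafficking genes, 6 were tested and 4 were lower, among them Cd36, a scavenger receptor that works with Tlr2, with 1 UMI against 159. Its ratio was 0.0375 with a counting interval of 0.000943 to 0.212.

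Of the 17 other adaptors and kinases, 5 were tested and 1 was higher. Of 7 transcription factors, all were tested and 2 were higher. One of them was Irf7, which drives type I interferon genes, at 223, 164, 160 and 113 CPM against 55.6, 23.3, 25.1 and 11.4 CPM (log2 fold change 2.28, SE 0.30, adjusted p = 3.1e-08). Of 8 genes listed as negative regulators, 5 were tested and 3 were lower. Whether they restrain the pathway in these cells was not tested. Peli1, a ubiquitin ligase of the IRAK complex, fell by 1.39 on the log2 scale (SE 0.33, adjusted p = 0.0012). It stood at 29.1, 35.2, 100 and 45.1 CPM against 93.3, 101, 88.8 and 98.8 CPM (mice 14, 15, 2 and 3). Mouse 2 thus went the other way, and the Plac8-high levels rested on 3, 6, 5 and 4 UMIs. The fall was lost with cells of both rules counted as Plac8-high (-0.60, adjusted p = 0.13) and after thinning (-0.64, adjusted p = 0.46).

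Among 14 early target genes, 12 were tested, 5 were lower and 1 was higher. Il10, an anti-inflammatory cytokine, had 1, 2, 2 and 0 UMIs in the Plac8-high cells of mice 14, 15, 2 and 3. In their C1q-high cells it had 40, 86, 50 and 56 UMIs. It passed the filter on low counts through the C1q-high cells alone, so that its fold change of -3.28 (SE 0.46) is a description. The neutrophil chemokine gene Cxcl1 had 0, 13, 10 and 0 UMIs against 93, 432, 265 and 352 UMIs, in the same order. Cxcl1 met the filter mainly through the C1q-high cells, so that its fold change of -3.37 (SE 0.31) is likewise a description. Ptgs2, the inducible cyclooxygenase, was higher by 1.26 (SE 0.29, adjusted p = 0.00072), which was lost without mouse 15 (0.73, adjusted p = 0.22). It stood at 204, 423, 20.0 and 158 CPM against 57.6, 90.0, 131 and 45.6 CPM (mice 14, 15, 2 and 3). Mouse 2, with 1 Ptgs2 UMI in its Plac8-high cells, thus went the other way. Genes that rise during tissue dissociation moved as well, and their part in these values was not tested. Of 13 such genes, all tested, 5 were lower, including Dnajb1 (-1.57), Fosb (-1.40) and Jund (-1.26). Their summed level was 17871 to 26210 CPM in Plac8-high and 18382 to 23614 CPM in C1q-high cells.

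The second comparison asked whether the 10 genes change upon DEP exposure. Over all retained cells, 2 of 5333 genes tested (0.0375%) passed the threshold, and none of the 9 members tested was among them. Tlr2 stood at 149 and 181 CPM in the DEP mice and at 111 and 125 CPM in the PBS mice. The groups did not overlap, with a log2 fold change of 0.45 (SE 0.19, adjusted p = 0.71). Myd88 stood at 61.9 and 73.1 CPM against 43.0 and 38.7 CPM, also without overlap (0.71, SE 0.25, adjusted p = 0.66). The share of Plac8-high cells moved the same way, and its part in these sums was not tested. It was 20.8% and 23.0% of retained cells in the DEP mice and 8.99% and 13.2% in the PBS mice. Tlr2, Myd88 and Ly96 were the 3 of 9 members with both DEP mice above both PBS mice, a pattern seen in 21% of all genes tested. Cd14 stood at 855 and 1629 CPM against 1241 and 1239 CPM, so that the DEP mice enclosed the PBS mice (-0.03, SE 0.22, adjusted p = 0.99). The other 6 fold changes lay between -0.21 and 0.40.

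Within C1q-high cells no gene passed the threshold with edgeR (0 of 5466 tested, 279 at an unadjusted p under 0.05). DESeq2 also called 0 and edgeR's likelihood ratio test called 2. Tlr2 had 121 and 157 CPM upon DEP against 94.6 and 101 CPM upon PBS (0.51, SE 0.21, adjusted p = 0.93). Myd88 had 39.7 and 51.2 CPM against 38.6 and 32.9 CPM (0.38, SE 0.32, adjusted p = 0.93). In 5 of the 9 members (Tlr2, Tlr7, Ly96, Myd88 and Irak4) both values upon DEP exceeded both upon PBS, and in none they lay below, whereas 16.9% and 17% of all genes did so. The nearest DEP and PBS values lay close for Myd88 (39.7 against 38.6 CPM), Tlr7 (23.8 against 22.8 CPM) and Irak4 (23.3 against 21.2 CPM). Those of Myd88 rested on 20 UMIs each. The 9 fold changes ranged from -0.23 to 0.51.

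Within Plac8-high cells 19 of 4639 genes (0.41%) passed, and none of the 8 members tested did. Marker sums of these cells differed between the groups. Their monocyte markers summed to 50724 and 50758 CPM upon DEP and to 65123 and 64312 CPM upon PBS, without overlap. Most of these sums was Lyz2, at 39495 and 40199 CPM against 55256.5 and 52622 CPM. F13a1 and Chil3 were also lower upon DEP, and Plac8 was higher (5750 and 4874 CPM against 3903 and 4047 CPM). The other monocyte markers overlapped. B or plasma cell markers summed to 485 and 605 CPM against 340 and 293 CPM, without overlap. Among them Igkc (242 and 458 CPM against 40.0 and 101 CPM) and the scarcer Jchain were higher upon DEP. Ighm overlapped (194 and 70.5 CPM against 240 and 158 CPM). The part of these differences in the values was not tested. Tlr2 stood at 262 and 241 CPM upon DEP against 300.2 and 293 CPM upon PBS (-0.19, SE 0.36, adjusted p = 0.99). Its direction turned after thinning (0.53) and with cells of both rules counted as Plac8-high (0.16). Myd88 was at 165 and 153 CPM against 80.1 and 101 CPM, the PBS values resting on 4 and 9 UMIs (0.80, SE 0.49, adjusted p = 0.92). It was the 1 member with both DEP mice above both PBS mice (17.7% of all genes), whereas Tlr2, Tlr7 and Tlr13 had both below (18.8%). The fold changes of Ly96, Irak2 and Irak4 lay between -0.06 and 0.54, and those of Tlr13 and Tlr7 were -0.62 (SE 0.73) and -1.17 (SE 0.97).

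**Figure D3:**
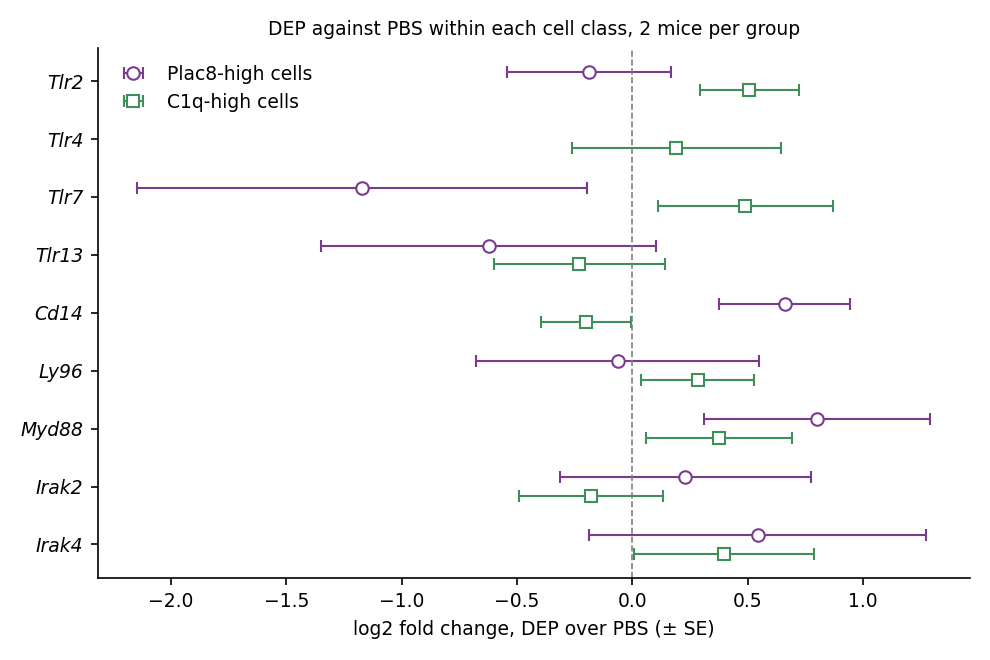
Log2 fold change of DEP over PBS (horizontal axis, standard errors as bars) within Plac8-high cells (circles) and C1q-high cells (squares), 2 mice per group. No gene passed the threshold in either class, and the errors in Plac8-high cells were larger, up to 0.97 for Tlr7. Tlr4 was tested in C1q-high cells alone.

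Cd14 had the clearest difference in direction between the classes. In Plac8-high cells it stood at 815 and 2666 CPM upon DEP against 700 and 1533 CPM upon PBS (0.66, SE 0.28, adjusted p = 0.62). In C1q-high cells it stood at 822 and 1367 CPM against 1309 and 1212 CPM (-0.20, SE 0.19, adjusted p = 0.94). The groups overlapped in both classes. The difference between the 2 DEP effects, fitted as an interaction with the mouse as a block, was 0.81 (SE 0.24, adjusted p = 0.12). In that fit 19 of 5315 genes (0.357%) passed the threshold, none of them a member. Without mouse 3 the Cd14 interaction was 1.68 (adjusted p = 2.6e-06) and without mouse 14 it was 1.23 (adjusted p = 0.027), whereas without mouse 15 it was 0.23. Within Plac8-high cells, the DEP effect on Cd14 was 1.45 without mouse 3 (adjusted p = 0.0016) and -0.46 without mouse 15. The value thus rests on single mice.

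Single cells showed where this spread lay. Among Plac8-high cells a Cd14 UMI was seen in 51.6% and 86.4% of the cells of DEP mice 14 and 15 and in 62.5% and 80.0% of those of PBS mice 2 and 3. Thinned to 1000 UMIs per cell, the shares were 25.8%, 66.1%, 43.8% and 64.0%. The median cell held 1, 5, 1 and 3 Cd14 UMIs. The 5 cells with the most Cd14 held 69.0%, 33.0%, 80.0% and 62.5% of the Cd14 UMIs of their library, out of 31, 59, 16 and 25 cells, so that these shares also follow the number of cells. In C1q-high cells the median was 3 UMIs in each mouse, and the shares of cells with a UMI lay between 81.7% and 87.1%. Mouse 14 had the lowest Cd14 level over all cells and the lowest summed level of the dissociation genes in both classes (17871 and 18382 CPM, against 21342 to 26210 CPM in the other mice). In Plac8-high cells Cd14 was lowest in mouse 2 (700 CPM), whose dissociation genes summed to 23936 CPM there. The part of dissociation in the Cd14 levels was not tested.

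**Figure D4:**
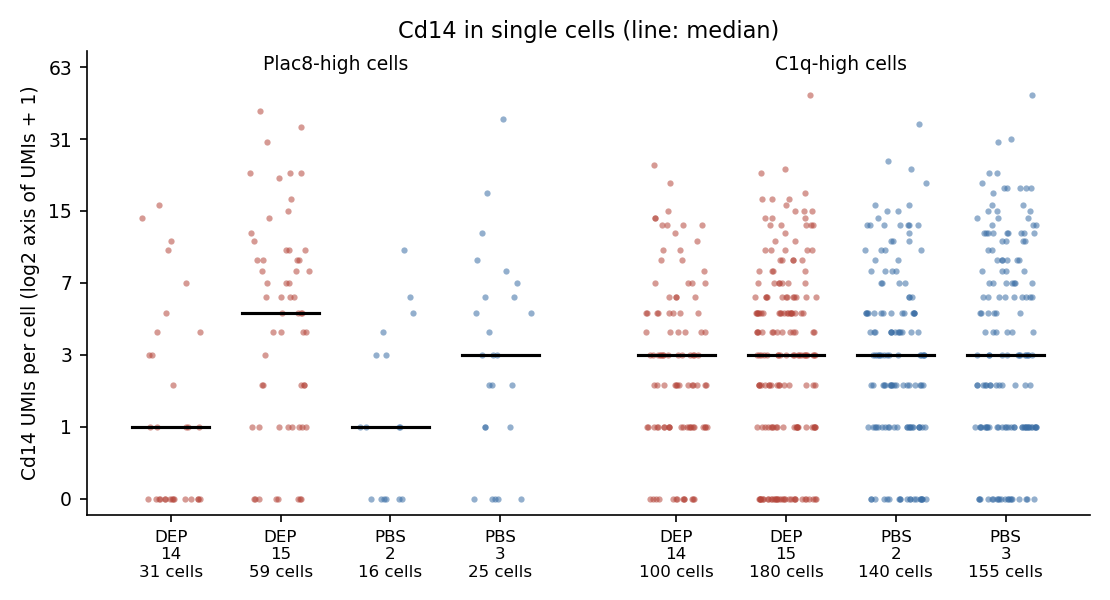
Cd14 UMIs in each Plac8-high and C1q-high cell by mouse, on a log2 axis of UMIs + 1, with the median as a line and the number of cells under each mouse. The Plac8-high medians were 1, 5, 1 and 3 UMIs in mice 14, 15, 2 and 3, whereas all C1q-high medians were 3.

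For the other members the interaction did not pass the threshold either. Myd88 had 0.47 (SE 0.61), Irak2 0.47 (SE 0.65) and Tlr2 -0.65 (SE 0.41), with adjusted p values of 1, 1 and 0.96. The Tlr7 estimate was -1.69 (SE 1.07, adjusted p = 0.96). Tlr4, with no UMI in the Plac8-high cells of the PBS mice, gave no usable estimate. With 2 mice per group, an exact two-sided permutation test of a single gene could not go below p = 0.333, and none was run.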

How the data were processed

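Colon macrophages of 4 mice were profiled by droplet sequencing with a 3′ v2 kit. The authors aligned the reads to mm10 (GRCm38) with Cell Ranger and STAR 2.6.1a, filtered cells and low genes, found no suspicious doublets, and deposited raw UMI counts per gene and cell, not normalized. Gene symbols were matched for 12576 of 12596 identifiers. No column lacked a sample. The members, lists and tests were chosen with earlier results of these data known. Cell classes were set by fixed minimums of Plac8 and C1q, and no further doublet caller was run. Counts were summed per mouse and class and tested with edgeR 4.0.16 (TMM factors, quasi-likelihood test, Benjamini-Hochberg adjustment over all genes) in R 4.3.3, keeping genes seen in 5% of the cells or more and above 1 CPM in 2 or more libraries. Printed CPM values carry no TMM factor. The mouse was the block between classes, since both classes came from the same animal. P-values of the DEP comparisons, the interaction included, rest on 2 mice per group, and those between the classes on 4 mice. The scripts were tested on simulated data.

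All 10 members were described, and of the other lists the 10 genes with the largest fold change past the threshold could be named. The exact binomial and ratio intervals (Python 3.11.15, scipy 1.17.1) at 95% and the floors of 3 counts cover counting error only. Alternatives were DESeq2 1.42.0, other scalings, filters and class rules, thinning to 1000 UMIs per cell, all deposited cells, and each mouse left out in turn. Markers without immunoglobulin transcripts and library totals alone were added after the data were seen. RefSeq had promoter entries for 6 members, of which 3 were printed. The position of Cd14 is not reported here.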

Additional observations from a re-analysis of the deposited data

Results flagged for a closer look

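Il1b, an early target gene of the pathway and not a member, was the 1 gene of the lists whose DEP effect differed between the cell classes by the interaction test. In Plac8-high cells it stood at 3384 and 5779 CPM in DEP mice 14 and 15 against 3843 and 2920 CPM in PBS mice 2 and 3. In C1q-high cells it stood at 2591 and 3400 CPM against 4553 and 3142 CPM. The interaction was 0.88 on the log2 scale (SE 0.20, adjusted p = 0.0045 by edgeR). Both groups overlapped in each class. The difference kept its direction in all 15 alternatives and passed the threshold in 8. It was lost in 7, among them without mouse 15 (0.66, adjusted p = 0.96), with DESeq2 (0.83, adjusted p = 1.0), with all deposited cells (0.62, adjusted p = 0.91) and with cells of both rules counted as Plac8-high (0.47, adjusted p = 0.71).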

How the results depend on the processing

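Tlr2 and Myd88 stayed higher in Plac8-high than in C1q-high cells in all 16 alternatives and past the threshold in 15 of them, thinning to 1000 UMIs per cell being the exception. Irak2 was past it in 8 of 16 and Irak4, not past it in the main test, in 4 of 15. The count of genes between the classes was 584 with DESeq2, 455 after thinning, 1052 with no replicate block for the mouse and 766 to 994 with a mouse left out. Cd14 reversed between the classes to 0.065 with no block, 0.23 with library totals and 0.0056 with cells of both rules counted as Plac8-high, and ranged from -0.43 to 0.23 with a mouse left out. Ly96 reversed to 0.032 with library totals. Tlr7 reversed to 0.0029 with a C1q minimum of 1% and ranged from -0.66 to 0.053 with a mouse left out, the highest value being without mouse 14.

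No paired analysis of DEP against PBS was possible because the groups share no replicate number. Over all cells the count of genes was 1 with DESeq2, all deposited cells or no immunoglobulin markers, 52 with no filter, 13 with the likelihood ratio test, 0 after thinning and 0 to 10 with a mouse left out. In Plac8-high cells it was 0 with DESeq2, after thinning or with cells of both rules added, 2 with all deposited cells and 5 to 19 with a mouse left out. In C1q-high cells it was 12 with no filter, 2 with the likelihood ratio test and 0 to 27 with a mouse left out (17 without mouse 14, 27 without mouse 15). For the interaction it was 0 with DESeq2 or with cells of both rules added, 3 with all deposited cells, 1 after thinning, 6 with a C1q minimum of 1% and 11 to 26 with a mouse left out. Upon DEP, Cd14 over all cells reversed to 0.0060 with library totals. With a mouse left out it ranged from -0.58 to 0.36 over all cells, from -0.63 to 0.13 in C1q-high cells and from -0.46 to 1.45 in Plac8-high cells, the signs turning without mouse 14 in the first 2 cases and without mouse 15 in the last. Tlr2 in Plac8-high cells reversed to 0.53 after thinning and to 0.16 with cells of both rules added. The causes were not tested.

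Depth limits Tlr4, Tlr7, Tlr13, Irak3 and Irak4, with 2 to 23 UMIs over all Plac8-high cells.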
